A study of Mus musculus with 16 samples.

Results

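The genes described here encode the vascular endothelial growth factors, the angiopoietins and their receptor tyrosine kinases: the ligands Vegfa, Vegfb, Vegfc, Pgf, Angpt1 and Angpt2 and the receptors Flt1, Kdr, Flt4 and Tek. Every probe set annotated to exactly 1 of these gene symbols was taken, which gave 14 probe sets of 10 genes out of 22626 probe sets and 12393 genes. Flt1 had 3 probe sets, Vegfa and Flt4 had a pair each, and the other 7 genes had 1. Messenger RNA was measured on Affymetrix M430A_2 mouse arrays in 16 samples. Melanocytes labelled as free of disease gave 4 arrays, with no genotype, strain or age stated. Cutaneous melanomas of iMet animals, with the genotype Tyr-rtTA;Tet-Met;Ink4a/Arf-/-, gave 6. Melanomas of iHRAS* animals, with the genotype Tyr-rtTA;Tet-HRASV12G;Ink4a/Arf-/-, gave the other 6. In both models a tyrosinase promoter drives the tetracycline-controlled activator in melanocytes, the activator switches on Met, the receptor of hepatocyte growth factor, or a mutant HRAS, and the tumour suppressors Ink4a and Arf are deleted. The labels of the tumour arrays speak of isolated cells and the design text of melanomas, and which was hybridised is not settled by the sources used here. Separate animals are not stated for the arrays of a group, and p-values therefore reflect the spread between these arrays, which may in part be technical.

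VEGF-A is the principal growth signal for blood vessel endothelium and acts mainly through the receptor encoded by Kdr, whereas the receptor encoded by Flt1 binds VEGF-A, VEGF-B and placental growth factor tightly and signals weakly, so that it also acts as a decoy. VEGF-C and VEGF-D act through the receptor encoded by Flt4, which is best known from lymphatic endothelium and is also found on tumour blood vessels. The angiopoietins act on the receptor encoded by Tek, also called TIE2: angiopoietin-1, made by cells around the vessel, keeps vessels quiet, and angiopoietin-2, made by endothelium itself, mostly opposes it. In a solid tumour the ligands can come from tumour cells, macrophages and stroma, while Kdr, Flt4 and Tek are read largely from endothelial cells.

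The 4 receptor genes are shown first by the 250 bases before their annotated start, because a window was at hand for all 4 and the results below turn on how differently they behaved. The sequences are RefSeq's on GRCm38.p6, 5′ to 3′ on the gene's strand, and capitals mark GGAA on either strand (GGAA or TTCC), the core that ETS family factors of endothelial cells bind.
Kdr, chr5:75978456-75978705, minus strand: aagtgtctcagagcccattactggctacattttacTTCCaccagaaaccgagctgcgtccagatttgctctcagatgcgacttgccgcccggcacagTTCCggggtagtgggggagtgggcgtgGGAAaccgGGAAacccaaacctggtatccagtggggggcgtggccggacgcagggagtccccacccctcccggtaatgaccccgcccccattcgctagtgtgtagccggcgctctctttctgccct
Flt4, chr11:49609429-49609678, plus strand: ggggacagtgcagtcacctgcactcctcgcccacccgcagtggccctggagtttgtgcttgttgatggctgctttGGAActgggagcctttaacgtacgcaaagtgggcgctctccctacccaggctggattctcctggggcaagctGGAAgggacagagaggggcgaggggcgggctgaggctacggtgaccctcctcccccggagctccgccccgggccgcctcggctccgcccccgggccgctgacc
Tek, chr4:94739039-94739288, plus strand: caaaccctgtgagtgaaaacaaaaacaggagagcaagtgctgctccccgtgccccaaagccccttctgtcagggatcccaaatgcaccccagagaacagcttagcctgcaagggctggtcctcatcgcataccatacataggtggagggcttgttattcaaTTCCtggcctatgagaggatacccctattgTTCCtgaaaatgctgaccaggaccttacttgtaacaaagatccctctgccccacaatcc
Flt1, chr5:147726012-147726261, minus strand: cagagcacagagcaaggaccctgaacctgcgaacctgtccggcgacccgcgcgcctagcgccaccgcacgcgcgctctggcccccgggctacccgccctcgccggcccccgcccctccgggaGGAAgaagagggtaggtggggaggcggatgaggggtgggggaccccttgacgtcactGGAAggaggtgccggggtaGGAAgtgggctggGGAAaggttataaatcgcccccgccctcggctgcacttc
The core occurred 4 times in the Kdr window, 2 times in Flt4, 2 times in Tek and 4 times in Flt1. It is short, and 93.4% of 32851 mouse promoter windows of the same length held it, with a median of 3 matches, so these counts do not set the receptors apart. The Sp1 core GGGCGG (or CCGCCC) occurred 2, 3, 0 and 3 times in the same order, against 32.7% of all windows that held it at least once. The hypoxia-response core ACGTG (or CACGT) occurred in 0 of the 4 windows and in 16.6% of all windows. No motif match overlapped another in these windows. GC content was 61.6%, 68.4%, 51.2% and 70.4%. Windows were present in the sequence table for 8 of the 10 genes; Angpt1 and Angpt2 are named only.

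Levels are given as quantile-normalized log2 signal, in which 1 unit is a doubling. A signal above log2 6.21, the 40th percentile of all values, was taken as clearly measured, and a probe set was tested if it passed that level on at least 6 tumour arrays, or on at least 4 arrays where melanocytes were compared. Deposited array medians ran from 6.56 to 7.28, lowest on iHRAS* arrays 3 and 4, and iHRAS* array 4 had a 3′ minus 5′ difference for actin of 1.12 where the other tumour arrays had at most 0.3. Control probe sets were not quantile-normalized, and bioB values are deposited log2 signal with every array shifted to the same median. The bioB hybridisation spike was dimmer on the iHRAS* arrays (7.82 ± 0.27, SD, n = 6) than on the iMet arrays (8.64 ± 0.19, n = 6). The exact permutation p was 0.002165, the smallest that 6 against 6 arrays allow. Melanocyte arrays were at 8.77 ± 0.24 (n = 4), their lowest (8.5) also above the highest iHRAS* array (8.09). A technical difference of the iHRAS* arrays and the effect of the model cannot be told apart. The label of the melanocyte arrays was only partly borne out. Sox10 (9.66) and Pmel (6.70) were measured on all 4. The pigment genes Tyr (3.97), Tyrp1 (4.25) and Dct (4.19) and the regulator Mitf (5.67) were below 6.21 on all 4. The keratinocyte genes Krt14 (12.73), Krt5 (12.57), Perp (11.21), Dsp (10.43), Trp63 (9.12) and Krt10 (6.82) were measured on all 4. Other keratinocyte genes, Krt1 (3.44), Cdh1 (3.77) and Epcam (1.63), were measured on 0. The fibroblast genes Col1a1 (12.6), Col1a2 (11.97), Col3a1 (11.01), Dcn (9.09) and Pdgfra (7.74) were measured on all 4, and Lum (5.4) on 1. On melanocyte arrays 1 to 4 the mean of 6 fibroblast markers was 10.49, 8.66, 11.32 and 8.07. That of 9 keratinocyte markers was 7.56, 8.9, 6.71 and 8.7. The melanocyte arrays thus differed among themselves, and their cell content was not tested. The mean of 16 endothelial marker genes was 4.39 ± 0.38 (SD, n = 4) in melanocytes, 7.80 ± 0.65 (n = 6) in iMet tumours and 6.87 ± 0.40 (n = 6) in iHRAS* tumours. Each pair of groups differed in this mean by an exact permutation test (adjusted p over 27 tests: 0.0219 between the models, 0.00918 for either model against melanocytes). In melanocytes 14 of the 16 endothelial genes had a mean below 6.21; Pecam1, Cdh5 and Plvap, which define endothelium, lay at 3.25, 3.44 and 2.31 there, at 8.63, 8.80 and 9.48 in iMet tumours and at 7.30, 7.54 and 8.25 in iHRAS* tumours. Of 14 endothelial markers tested between the models, 8 were called higher in iMet, 0 lower and 6 not called (median 1.19); Eng (8.96 in iMet, 9.82 in iHRAS*) and Vwf (5.55 and 6.60) were among the 6. The call of Cdh5 was kept in 10 of 25 alternatives, and those of Pecam1 and Plvap in 24 and 23. In bulk samples such as these, fewer cells of a type and less RNA per cell cannot be told apart.

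The receptors Kdr and Flt4 were higher in both tumour models than in melanocytes, Angpt2 and the angiopoietin receptor gene Tek were higher in iMet tumours than in melanocytes, and the ligands Vegfa, Vegfb and Vegfc did not pass the test against melanocytes in either model. Between the models, Tek and Vegfb were higher in iMet tumours, but these calls were lost in 13 of 24 and 16 of 25 alternatives. The test was limma's moderated test with Benjamini-Hochberg adjustment over all probe sets tested, called at an adjusted p under 0.05, and 12 of the 14 probe sets could be tested; Pgf and Angpt1 were too dim. Between the models 2 of 12 were higher in iMet tumours (16.7%) and 0 lower, with 3 at an unadjusted p under 0.05, where 11% of all 13747 probe sets tested were called higher, 8.33% lower and 19.3% either way. The ranges of the models overlapped for all 12, against 10.1% of all probe sets with ranges apart. Against melanocytes, 5 of 12 were higher in iMet tumours (background 14.9% of 14999) and 3 of 12 in iHRAS* tumours (background 15.8%), with 5 and 4 at an unadjusted p under 0.05 and 0 lower in both (backgrounds 17.5% and 21.9%; 32.5% and 37.8% either way). The median difference of the 12 was 0.34 between the models, 0.92 for iMet tumours and 0.89 for iHRAS* tumours against melanocytes, beside 0.06, −0.09 and −0.13 over all probe sets tested. Kdr, Flt4, Angpt2 and Tek were measured on at most 1 melanocyte array each and entered the test through the tumours, so counts against melanocytes describe these probe sets and are not support for a trend of the family. Both comparisons with melanocytes use the same 4 arrays. Tek was above 6.21 on 5 iMet arrays and 1 iHRAS* array, so it entered the test between the models mainly through iMet tumours.

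**Figure D1:**
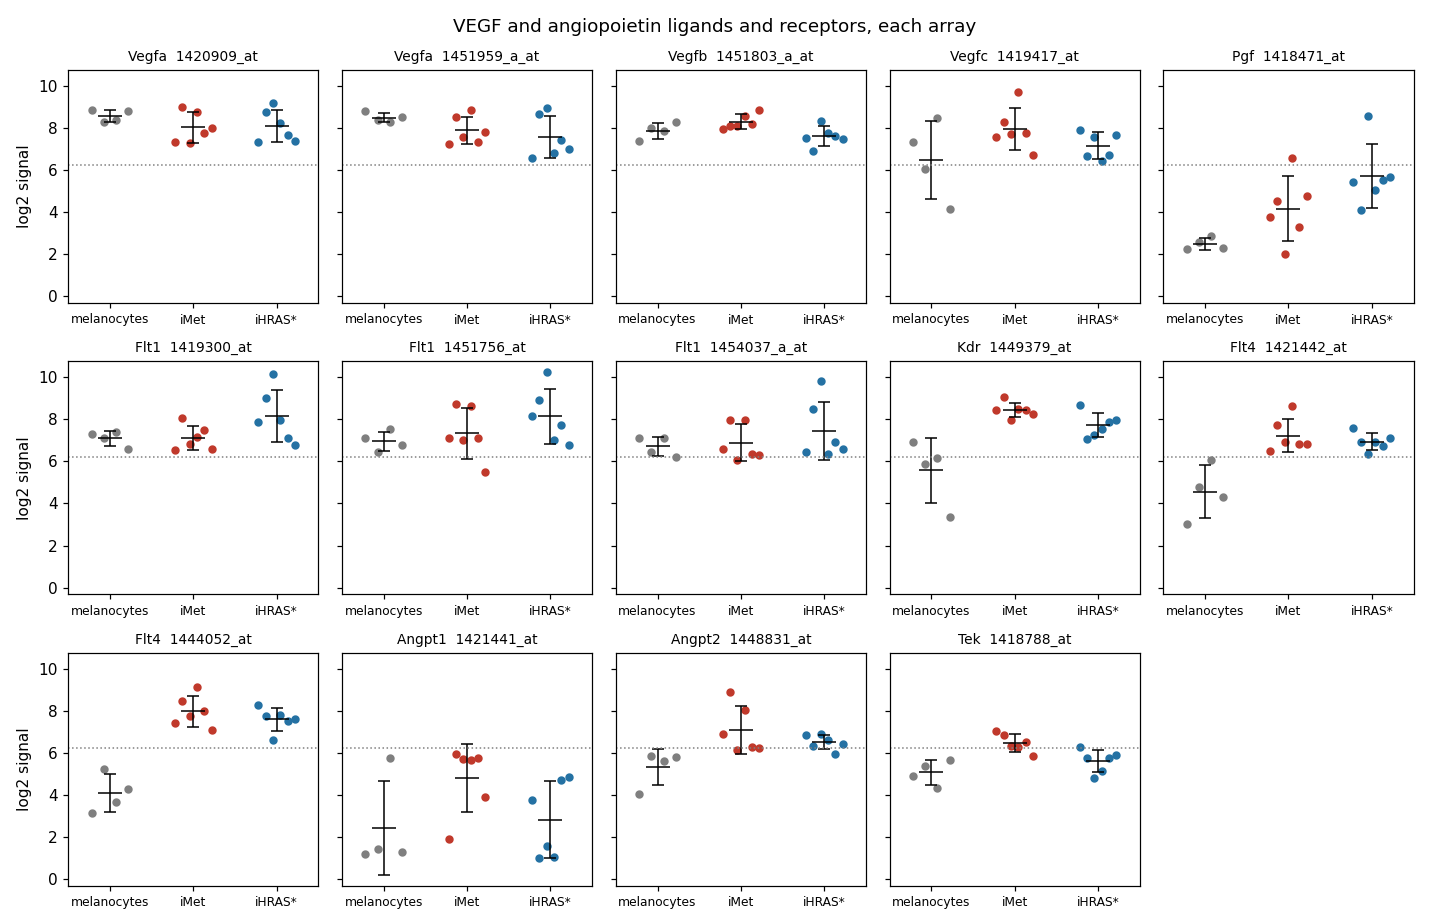
Log2 signal (vertical axis) of the 14 probe sets on each array, with melanocytes, iMet and iHRAS* tumours side by side; points are arrays, bars the mean ± SD, and the dotted line is log2 6.21. Kdr and both Flt4 probe sets are lower on all 4 melanocyte arrays than on all 12 tumour arrays, while Vegfa overlaps between all groups.

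**Figure D2:**
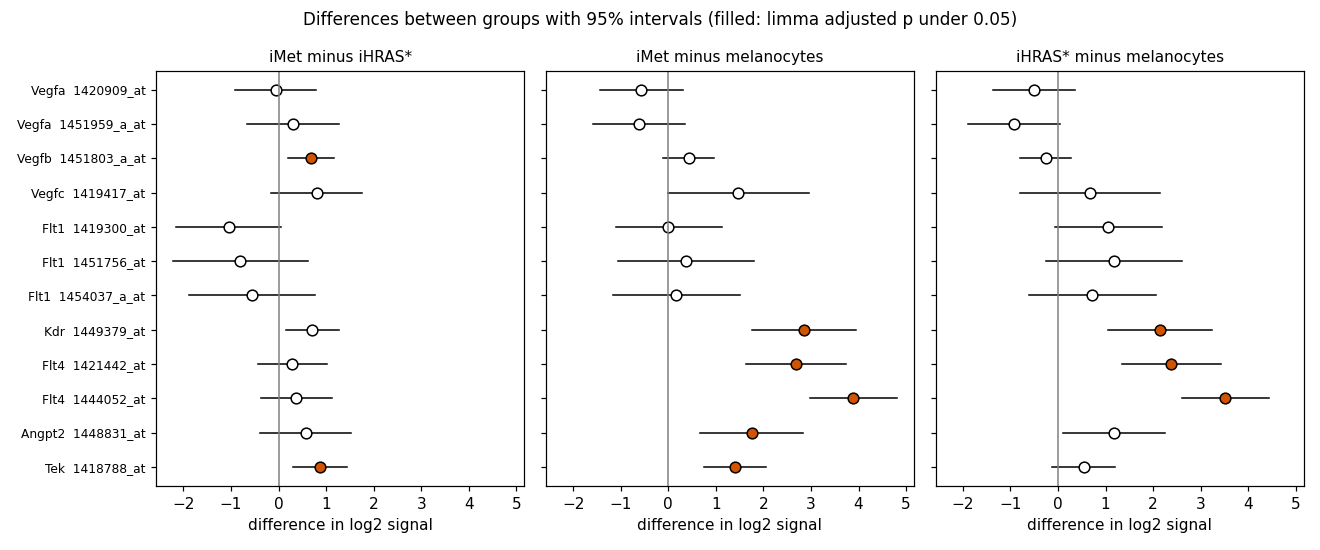
Difference in log2 signal with its 95% interval from limma for the 12 tested probe sets in the 3 comparisons. The intervals of Kdr and Flt4 against melanocytes lie above 0 for both models, and between the models those of Vegfb, Kdr and Tek lie above 0, of which Vegfb and Tek passed after adjustment.

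Kdr, the main signalling receptor for VEGF-A, was at 6.92, 5.88, 6.17 and 3.36 on melanocyte arrays 1 to 4. In iMet tumours it ran from 7.99 (lowest) through a median of 8.43 to 9.04, and in iHRAS* tumours from 7.07 through 7.70 to 8.68. Every tumour array thus lay above every melanocyte array. Ranges were apart, in either direction, for 26.8% of all probe sets tested for iMet and 24.6% for iHRAS*; of the 12 tested here, this held for 5 and 4. Kdr was higher by 2.85 ± 0.51 (SE) in iMet tumours (adjusted p = 0.00072) and by 2.14 ± 0.51 in iHRAS* tumours (adjusted p = 0.00463). Only melanocyte array 1 was above 6.21; with all values below that level raised to it, the differences were 2.05 (adjusted p = 5.82e-05) and 1.34 (0.00161). Kdr kept both calls in each alternative run. The 2 models overlapped: the difference of 0.71 ± 0.26 (95% interval 0.15 to 1.27) had an unadjusted p of 0.0175 and an adjusted p of 0.0731. It passed with the values as deposited (0.92, adjusted p = 0.0433) and without iHRAS* array 1, the highest of its group (0.90, 0.0157).

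Flt4, the receptor of VEGF-C and VEGF-D, had in probe set 1444052_at the biggest difference from melanocytes among the 12 tested probe sets. That probe set was at 3.16, 5.23, 3.65 and 4.29 in melanocytes, from 7.07 through a median of 7.88 to 9.12 in iMet tumours and from 6.60 through 7.70 to 8.29 in iHRAS* tumours. No melanocyte array reached 6.21 and every tumour array exceeded it. The difference was 3.89 ± 0.43 for iMet (adjusted p = 1.15e-05) and 3.52 ± 0.43 for iHRAS* (2.95e-05), or 1.76 and 1.39 with dim values raised to 6.21, which kept both calls. Probe set 1421442_at was at 3.02, 4.78, 6.08 and 4.32 in melanocytes, from 6.48 through 6.88 to 8.61 in iMet and from 6.36 through 6.91 to 7.57 in iHRAS* tumours. It differed by 2.68 ± 0.49 (adjusted p = 0.000855) and 2.38 ± 0.49 (0.00178), the latter falling to 0.73 and out of the call with dim values raised (0.0954). Across the 12 tumour arrays the pair of probe sets moved together (r = 0.90, a description). The models did not differ detectably in Flt4: 0.37 (95% interval −0.38 to 1.12) and 0.29 with adjusted p of 0.476 and 0.563.

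Flt1, the decoy receptor, was the receptor whose 3 probe sets passed in no comparison. Probe set 1419300_at was at 7.30, 7.10, 7.42 and 6.60 in melanocytes, where it was measured on all 4 arrays, at 6.53, 7.0 and 8.06 (lowest, median, highest) in iMet tumours and at 6.80, 7.93 and 10.17 in iHRAS* tumours. Probe set 1451756_at was at 7.11, 6.46, 7.52 and 6.77, then 5.48, 7.09 and 8.74, then 6.78, 7.92 and 10.26. Probe set 1454037_a_at was at 7.11, 6.44, 7.11 and 6.21, then 6.07, 6.47 and 7.99, then 6.37, 6.76 and 9.80. For each probe set the top array was iHRAS* array 3, and iHRAS* array 2 came next, so the iHRAS* group was wide (SD 1.25 to 1.40). Between the models the iMet minus iHRAS* differences were −1.05 ± 0.51 (adjusted p = 0.165), −0.81 ± 0.65 (0.406) and −0.56 ± 0.61 (0.547). The first of them passed as lower in iMet only when iHRAS* arrays 5 and 6 were left out (−1.65, adjusted p = 0.0375). Against melanocytes the iHRAS* differences were 1.06 ± 0.53, 1.18 ± 0.67 and 0.72 ± 0.63 (adjusted p = 0.123, 0.177 and 0.381). The first passed with the replicate block (1.38, adjusted p = 0.0499) and without iHRAS* arrays 5 and 6 (1.66, 0.0166). The iMet differences from melanocytes were 0.00, 0.37 and 0.16, with adjusted p from 0.700 to 0.996.

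Tek, the angiopoietin receptor, was at 4.92, 5.36, 4.33 and 5.67 in melanocytes. In iMet tumours it ran from 5.83 through a median of 6.42 to 7.04, and in iHRAS* tumours from 4.83 through 5.77 to 6.26. It was measured above 6.21 on 0 melanocyte arrays, 5 iMet arrays and 1 iHRAS* array. Tek was 1.82-fold higher in iMet than in iHRAS* tumours (0.87 ± 0.26, 95% interval 0.30 to 1.43, adjusted p = 0.035), with overlapping ranges. Against melanocytes it was higher by 1.40 ± 0.31 in iMet (adjusted p = 0.00318, ranges apart) and by 0.54 ± 0.31 in iHRAS* tumours (0.186). The iMet call was lost without melanocyte arrays 1 and 3 (0.96, adjusted p = 0.0709) and with dim values raised (0.33, 0.0892). The iHRAS* difference passed with median centring (0.81, adjusted p = 0.044), with array weights (0.85, 0.026) and without iHRAS* arrays 3 and 4 (0.85, 0.0351). The model difference lost its call in 13 of 24 alternatives while staying positive (0.32 to 1.00). Among these, it was 0.32 with dim values raised to 6.21 (adjusted p = 0.129), 0.55 without the low-median iHRAS* arrays 3 and 4 (0.119) and 0.33 with the endothelial marker mean as a covariate (0.546); it was also lost on leaving out iMet array 1, 2, 3 or 5 or iHRAS* array 3 or 4 (adjusted p 0.0573 to 0.0788).

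Vegfa, the main vessel growth factor, did not differ detectably in any comparison. Probe set 1420909_at was at 8.84, 8.27, 8.39 and 8.81 in melanocytes, at 7.28, 7.86 and 9.0 (lowest, median, highest) in iMet tumours and at 7.34, 7.92 and 9.16 in iHRAS* tumours. Probe set 1451959_a_at was at 8.80, 8.36, 8.27 and 8.53, then 7.23, 7.68 and 8.83, then 6.57, 7.22 and 8.96. Melanocytes were uniform and well above 6.21, whereas tumours of each model spread over more than 1 log2 unit, with iMet arrays 2 and 4 and iHRAS* arrays 2 and 3 high in both probe sets. Between the models the differences were −0.06 ± 0.39 (95% interval −0.91 to 0.79, adjusted p = 0.926) and 0.30 ± 0.45 (−0.66 to 1.27, 0.663). Against melanocytes all 4 differences were negative: −0.57 ± 0.40 and −0.61 ± 0.46 for iMet (adjusted p = 0.302 and 0.323) and −0.50 ± 0.40 and −0.92 ± 0.46 for iHRAS* (0.339 and 0.123). The last passed with array quality weights (−1.26, adjusted p = 0.0218) and without iHRAS* array 3 (−1.20, 0.0307).

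Vegfb, a ligand of the Flt1 receptor, was at 7.36, 7.97, 7.83 and 8.28 in melanocytes, from 7.96 through a median of 8.15 to 8.85 in iMet tumours and from 6.90 through 7.57 to 8.34 in iHRAS* tumours. Every iHRAS* array except array 3 lay below every iMet array. Vegfb was 1.61-fold higher in iMet than in iHRAS* tumours (0.69 ± 0.22, 95% interval 0.20 to 1.17), with an adjusted p of 0.0494, just inside the threshold. It lost the call in 16 of 25 alternatives, among them leaving out any single array except iHRAS* array 3, but stayed positive in all (0.54 to 0.91). Neither model passed against melanocytes (0.43 ± 0.25, adjusted p = 0.205, and −0.26 ± 0.25, 0.440), except iMet with array weights (0.54, 0.0458).

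Vegfc, which drives lymphatic growth through the Flt4 receptor, varied widely among melanocytes: 7.33, 6.02, 8.45 and 4.12. It ran from 6.69 through a median of 7.74 to 9.72 in iMet tumours and from 6.40 through 7.14 to 7.90 in iHRAS* tumours, above 6.21 on all 12. It differed by 0.80 ± 0.44 between the models (adjusted p = 0.22), by 1.47 ± 0.69 between iMet tumours and melanocytes (0.117) and by 0.67 ± 0.69 between iHRAS* tumours and melanocytes (0.464). The fibroblast marker mean ranked the melanocyte arrays in the same order as Vegfc (10.49, 8.66, 11.32 and 8.07 on arrays 1 to 4). Its part in the spread of Vegfc was not tested. The melanocyte comparisons depended on which melanocyte arrays were used. Without arrays 1 and 3 the differences were 2.88 (adjusted p = 0.00791) and 2.08 (0.0333), without array 3 alone that of iMet was 2.13 (0.026), and without arrays 2 and 4 that of iHRAS* was −0.73. Pgf, placental growth factor, was at 2.24, 2.59, 2.86 and 2.31 in melanocytes, at 2.02, 4.15 and 6.57 (lowest, median, highest) in iMet tumours and at 4.10, 5.47 and 8.58 in iHRAS* tumours. Only iMet array 4 and iHRAS* array 3 exceeded 6.21. All 6 iHRAS* arrays lay above all melanocytes (exact permutation p = 0.004762, adjusted over 6 tests 0.0286), as did 5 of 6 iMet arrays (0.06667, adjusted 0.13), and the models did not differ detectably (−1.57, p = 0.1082). With nearly all values below the level at which signals are clearly measured, the size of these differences is poorly determined.

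Angpt2, the endothelial antagonist ligand of TIE2, was at 4.06, 5.87, 5.62 and 5.80 in melanocytes. It ran from 6.14 through a median of 6.61 to 8.88 in iMet tumours, with arrays 2 (8.88) and 4 (8.04) far above the others, and from 5.96 through 6.53 to 6.88 in iHRAS* tumours. All tumour arrays lay above all melanocyte arrays. The difference was 1.75 ± 0.51 for iMet (adjusted p = 0.0159) and 1.18 ± 0.51 for iHRAS* (0.0776). The iMet call was lost without melanocyte array 1 (1.32, adjusted p = 0.0684), without melanocyte arrays 1 and 3 (1.25, 0.153) and with dim values raised to 6.21 (0.89, 0.125). The iHRAS* difference passed with the values as deposited (1.41), with median centring (1.39), with the replicate block (1.47, adjusted p = 0.0406) and when only the 2 groups compared were fitted (1.18, 0.0284). The models differed by 0.57 ± 0.44 (adjusted p = 0.384). Angpt1, the stabilising ligand, was below 6.21 on all 16 arrays: 1.20, 1.41, 5.78 and 1.31 in melanocytes, 1.89, 5.67 and 5.93 (lowest, median, highest) in iMet and 1.01, 2.68 and 4.84 in iHRAS* tumours. The iMet minus iHRAS* difference of 1.98 had an exact permutation p of 0.06926 (adjusted 0.13), and no order can be read from values this dim.

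Among the receptors, the arrays with more endothelial marker signal had more Kdr within both models. Over the 6 iMet arrays, Kdr and the mean of the 16 endothelial markers (none of them one of the genes described here) correlated at r = 0.93 (exact permutation p = 0.00556, adjusted over 20 tests 0.037) and rho = 0.89 (p = 0.0333, adjusted 0.111). Over the 6 iHRAS* arrays r was 0.84 (p = 0.0319, adjusted 0.106) and rho 0.94 (p = 0.0167, adjusted 0.0667). Leaving out the 2 arrays farthest from the median left r at 0.80 and 0.76. Angpt2 followed the same mean in iMet tumours (r = 0.98, exact permutation p = 0.00278, adjusted 0.0278; rho = 0.94, adjusted 0.0667; 0.79 without the 2 farthest arrays) and not in iHRAS* tumours (r = −0.11, p = 0.826); the difference between the models was not tested. Tek had r = 0.89 in iHRAS* tumours (exact permutation p = 0.0208, adjusted 0.0833; 0.56 without the 2 farthest) and 0.52 in iMet tumours (p = 0.292). Flt4 had 0.72 and 0.81 in iMet and iHRAS* tumours (exact permutation p = 0.104 and 0.0597), the latter turning to −0.50 without the 2 farthest arrays. The endothelial mean itself was 0.93 higher in iMet than in iHRAS* tumours. With that mean as a covariate, the model difference was 0.05 in Kdr (adjusted p = 0.924), 0.33 in Tek (0.546) and 0.91 in Vegfb (0.0994). All calls between the models then fell from 2657 to 965. Because the mean differed between the models, its part and that of the model cannot be told apart, and the cause was not tested.

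**Figure D3:**
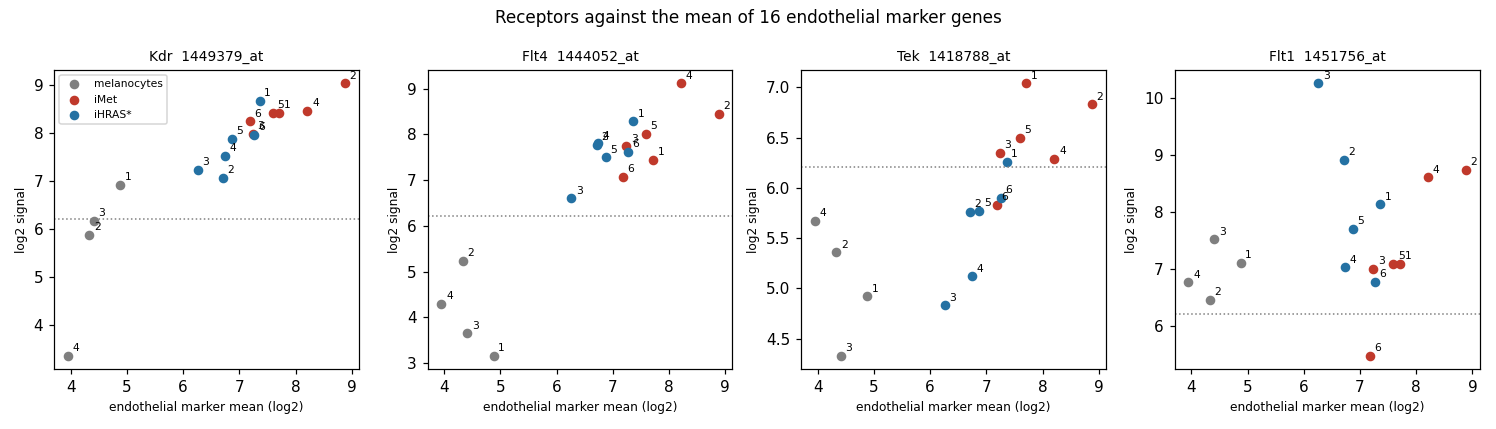
Log2 signal of Kdr, Flt4, Tek and Flt1 (vertical axes) against the mean log2 signal of 16 endothelial marker genes on the same array (horizontal axis); digits are array numbers, colours are groups, and the dotted line is log2 6.21. Kdr follows the endothelial mean within iMet tumours (r = 0.93) and within iHRAS* tumours (r = 0.84), and iHRAS* arrays 2 and 3 have high Flt1 at a low endothelial mean.

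Vegfa and the endothelial mean went opposite ways in iHRAS* tumours. Over those 6 arrays r was −0.93 (exact permutation p = 0.00139, adjusted over 20 tests 0.0278) and rho −1 (p = 0.00278, adjusted 0.0278), with r = −0.84 without the 2 farthest arrays; iHRAS* array 3 had the highest Vegfa and the lowest endothelial mean. In iMet tumours r was 0.82 (exact permutation p = 0.0486, adjusted 0.139) and turned to −0.35 without the 2 farthest arrays, so there the relation rests on arrays 2 and 4. Flt1 had a rho of 1 with the endothelial mean in iMet tumours (exact permutation p = 0.00278, adjusted 0.0278; r = 0.89, adjusted 0.0833; 0.68 without the 2 farthest) and an r of −0.69 in iHRAS* tumours (p = 0.125). Vegfa is itself a target of hypoxia-inducible factors, and the mean of a hypoxia list of 17 other genes was therefore set beside it. The measure was chosen after the values were seen. Most of the list is induced by hypoxia, but Hif1a, Epas1 and Vhl encode parts of the oxygen-sensing system itself. That mean is therefore only a rough measure of hypoxia. That mean was 9.15 ± 0.22 (SD, n = 4) in melanocytes, 9.20 ± 0.63 (n = 6) in iMet and 9.36 ± 0.72 (n = 6) in iHRAS* tumours, with no detectable difference between groups (exact permutation p from 0.6429 to 0.8952). It was highest on iMet arrays 2 (9.72) and 4 (10.16) and iHRAS* arrays 2 (9.81) and 3 (10.59), the arrays with the highest Vegfa within each model. In iHRAS* tumours Vegfa correlated with it at r = 0.94 (exact permutation p = 0.00694, adjusted over 20 tests 0.0463; rho = 0.83, adjusted 0.389; 0.69 without the 2 farthest arrays) and in iMet tumours at 0.73 (p = 0.101; −0.81 without the 2 farthest). Vegfc had r = 0.96 (exact permutation p = 0.00278, adjusted 0.0417; 0.98 without the 2 farthest) and Flt4 0.97 (p = 0.00417, adjusted 0.0417; 0.85 without) in iMet tumours. The rho of each was 0.94 and did not pass (adjusted p = 0.167). Flt1 had 0.94 in iMet tumours (exact permutation p = 0.0167, adjusted 0.0833) and 0.82 in iHRAS* tumours (p = 0.0486, adjusted 0.185), the latter turning to −0.71 without the 2 farthest arrays. Array 3 of the iHRAS* group, with its highest Vegfa and highest hypoxia mean, also had the lowest deposited median (6.56). The cause of these relations was not tested.

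**Figure D4:**
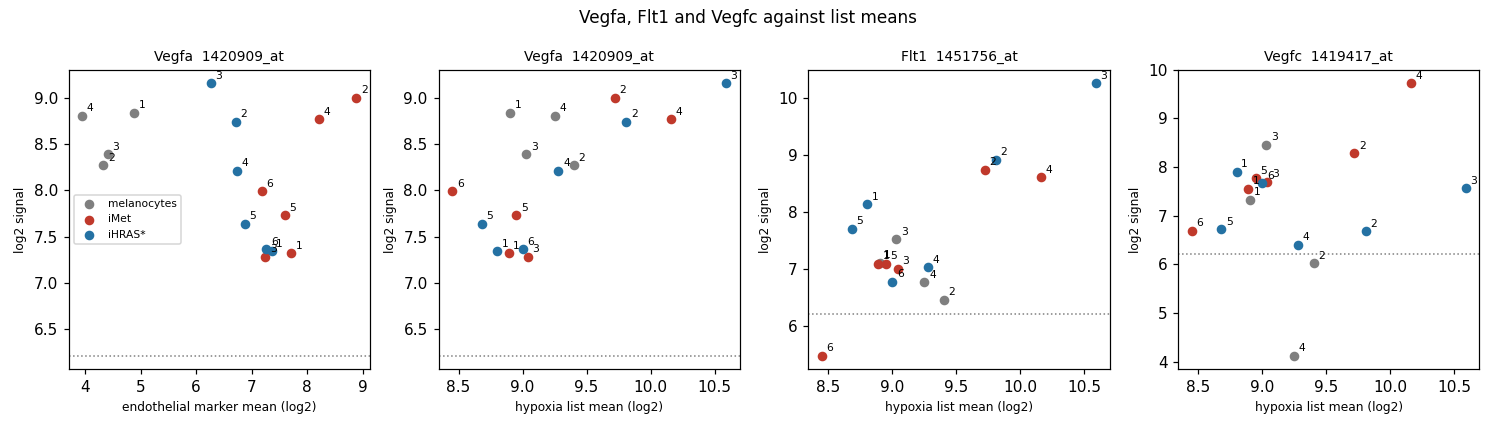
Log2 signal of Vegfa against the mean of 16 endothelial marker genes, and of Vegfa, Flt1 and Vegfc against that of the hypoxia list. The hypoxia list has 17 genes, horizontal axes are log2, and there is 1 point per array with its number. In iHRAS* tumours Vegfa is lower at a higher endothelial mean (r = −0.93) and higher at a higher hypoxia mean (r = 0.94), with array 3 at the end of both.

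The other genes of the pathway were read from lists, each gene by its brightest probe set. Between the models, 10.8% of all 8058 genes so tested were called higher in iMet and 9.39% lower, and their median difference was 0.03. Against melanocytes, 16% of 8651 genes were called higher and 18.2% lower in iMet tumours, and 17.8% higher and 20.7% lower in iHRAS* tumours. The list medians were 0.34 for co-receptors and partners, −0.05 for TIE partners, −0.08 for receptor signalling, 0.24 for VEGF-induced genes and −0.21 for the hypoxia list. Of 7 tested co-receptors, other VEGF ligands and semaphorin partners, 2 were higher in iMet than in iHRAS* tumours and 0 lower. Vegfd, the other ligand of Flt4, was at 9.23 ± 0.56 (SD, n = 6) in iMet tumours and 7.07 ± 0.79 (n = 6) in iHRAS* tumours, with ranges apart (8.57 to 10.03 and 6.10 to 8.21). It was 4.48-fold higher (2.16 ± 0.36, adjusted p = 0.00195) and stayed called in all 25 alternatives. Sema3a, a neuropilin-binding repellent of endothelial cells and axons, was higher by 1.68 ± 0.33 (adjusted p = 0.00499). The co-receptors Nrp1 and Nrp2 were bright in all groups, and between the models their differences were 0.60 ± 0.46 (adjusted p = 0.379) and 0.34 ± 0.26 (0.382). Against melanocytes, 2 of 8 were higher in iMet (Sema3a by 2.87 and Nrp2 by 1.06, the latter kept in 14 of 22 alternatives) and 2 lower (Sema3c by −1.90 and Plxna1 by −2.04, kept in 20 of 22 and 15 of 21). For iHRAS* tumours 1 was higher (Sema3a, 1.19) and 3 lower (Plxna1 −1.91, Sema3c −1.50, Vegfd −2.16). Melanocyte arrays ranged from 7.09 to 12.06 in Vegfd, and its lower call in iHRAS* tumours held in 12 of 24 alternatives; those of Sema3a, Sema3c and Plxna1 held in 13 of 24, 14 of 24 and 15 of 23.

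Among TIE receptor partners, Tie1, the TEK co-receptor of endothelium, was at 1.26 in melanocytes, 7.20 in iMet and 5.83 in iHRAS* tumours. It was higher in iMet than in iHRAS* tumours by 1.37 ± 0.40 (adjusted p = 0.0317, kept in 10 of 24 alternatives). Svep1, a matrix protein, differed by −2.66 ± 0.81 (adjusted p = 0.0379, kept in 11 of 25), which made 1 higher and 1 lower of 4 tested. Against melanocytes 2 of 5 were higher in iMet (Tie1 by 5.94 and the endothelial phosphatase Ptprb by 2.72) and 4 of 5 in iHRAS* tumours (Tie1 4.57, Svep1 3.37, Ptprb 2.13, Dok2 1.46), with 0 lower. Tie1 and Ptprb (4.64) were not clearly measured in melanocytes. With dim values raised to 6.21, their differences were 1.02 (adjusted p = 0.0285) and 1.15 (0.0041) for iMet, and for iHRAS* 0.10 (0.843) and 0.70 (0.0505), which ended both iHRAS* calls. Svep1 also lost its iHRAS* call there (2.04, adjusted p = 0.0555) and kept it in 14 of 24 alternatives. Of 9 VEGF receptor signalling genes, 3 were higher in iMet than in iHRAS* tumours and 2 lower. The higher ones were Prkca (1.34 ± 0.17, adjusted p = 0.000493), Nck1 (0.76 ± 0.22, 0.0321, kept in 15 of 25 alternatives) and Nos3, the endothelial nitric oxide synthase (0.86 ± 0.27, 0.0399, kept in 9 of 24 alternatives). The lower ones were Prkcb (−2.20 ± 0.17, adjusted p = 1.76e-05) and Pxn (−0.59 ± 0.16, 0.0255, kept in 17 of 25), and these kinases and adaptors act in many cell types. Against melanocytes 4 of 9 were higher in iMet (Prkcb by 3.15, Nos3 by 1.39, Nck1 by 0.74 and Prkca by 0.61) and 2 lower (Src by −0.94 and Akt1 by −0.40). Of these, Nck1 was kept in 9 of 22 alternatives, Prkca in 10 and Akt1 in 12. Prkcb was above 6.21 on 0 melanocyte arrays and Nos3 on 1. With dim values raised to 6.21, their iMet differences were 1.77 (limma adjusted p = 2.44e-06) and 0.89 (0.0153). In iHRAS* tumours 2 were higher (Prkcb 5.36, Pxn 0.76) and 2 lower (Prkca −0.73, Src −0.56, kept in 18 and 12 of 24). The mean of 7 macrophage markers was 5.07 in melanocytes, 9.79 in iMet and 8.75 in iHRAS* tumours, and that of 9 keratinocyte markers 7.97, 7.33 and 10.16. In the same order the mean of 5 Schwann cell markers was 7.85, 4.75 and 8.13, and that of 6 melanocyte markers 5.74, 5.32 and 6.68. Both of the latter means were lower in iMet than in iHRAS* tumours (−3.38 and −1.36, exact permutation adjusted p = 0.00918 for both). Of the 6 melanocyte markers, 4 had a mean below 6.21 in melanocytes, 4 in iMet and 3 in iHRAS* tumours. Mitf went the other way (7.56 in iMet, 7.34 in iHRAS*). The marker means moved beside the differences in ligands and signalling genes, and their part in them was not tested.

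Of 5 tested endothelial genes induced by VEGF, 0 were higher in iMet than in iHRAS* tumours and 1 was lower: Nr4a1, an immediate early gene of many cell types, by −1.44 ± 0.25 (adjusted p = 0.00243). Against melanocytes, 2 of 6 were higher in iMet tumours (the chemokine receptor gene Cxcr4 by 4.27 ± 0.83 and the tip cell ligand gene Apln by 1.19 ± 0.24) and 3 lower (Unc5b −1.60, Nr4a1 −1.22, Rcan1 −0.68, the last kept in 9 of 22 alternatives). In iHRAS* tumours Cxcr4 (4.04) and Apln (0.71) were higher and Unc5b (−1.84) and Rcan1 (−0.70) lower, with Apln kept in 16 of 24 alternatives and Rcan1 in 13. Cxcr4 was clearly measured on 0 melanocyte arrays. Its differences with dim values raised were 1.78 for iMet (limma adjusted p = 0.0135) and 1.6 for iHRAS* tumours (0.0211). Of the 16 genes of the hypoxia list tested between the models, 0 were called by limma, with 1 at an unadjusted p under 0.05. Against melanocytes 1 of 17 was higher in each model, Egln3 (3.39 in iMet, 4.22 in iHRAS*), and the same pair was lower in each, P4ha2 (−2.23 and −1.28) and Vhl (−0.41 and −0.59). The Vhl call in iMet was kept in 10 of 22 alternatives and the P4ha2 call in iHRAS* in 14 of 24. Egln3 was clearly measured on 1 melanocyte array. Its differences with dim values raised were 2.61 for iMet (limma adjusted p = 0.0114) and 3.45 for iHRAS* tumours (0.00174).

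The genes whose pattern over the 12 tumour arrays was most like each gene, by Pearson r of deviations from the model means among 8057 genes, are given as a description. For Vegfa they were Dgka (0.96), the glycolytic enzyme gene Pfkp (0.96) and the lactate transporter gene Slc16a3 (0.92). For Flt1 they were P4ha1, a collagen prolyl hydroxylase (0.95), Ankrd33b (0.94) and Smox (0.91). For Kdr they were Stk38 (0.94), the vessel wall adhesion gene Mcam (0.93) and Pdgfb, the endothelial growth factor for pericytes (0.91). For Flt4 they were the endothelial tight junction gene Cldn5 (0.93), Abca3 (0.91) and the erythropoietin receptor gene Epor (0.88). For Angpt2 they were Kansl2 (0.90), Nos3 (0.89) and Sh2d3c (0.86), and for Tek Tspan15 (0.90), Fxyd1 (0.85) and Cygb (0.84). Vegfb had Esyt1 (0.90), Tti1 (0.90) and Zfp532 (0.88), and Vegfc had Arsa (0.90), Slc7a7 (0.89) and the lipid droplet gene Plin2 (0.87). Between probe sets of the same gene, the signals over the 12 tumour arrays correlated at 0.85 for Vegfa and 0.81 to 0.89 for Flt1.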

How the data were processed

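Expression was measured on 16 Affymetrix mouse arrays. The authors deposited 1 table of 22690 probe sets with values from −4.07 to 14.53, the range of log2 signal; the summary method and normalization are not given in the sources used here, and the scale was read from the values. Samples were grouped by title. The 64 control probe sets were dropped and the other 22626 were quantile-normalized, so each difference is relative to the array as a whole. Names came from the platform annotation: 20380 had 1 symbol, 691 several and 1555 none. Probe sets passing the filter (6.21, the 40th percentile) were fitted with limma 3.58.1 in R 4.3.3 (lmFit, eBayes, two-sided): the 12 tumour arrays alone between the models, and all 16 for melanocytes, with Benjamini-Hochberg adjustment over all probe sets tested. Adjusted p-values of genes come from these fits. Single probe sets left out by the filter, list means and correlations had two-sided exact permutation tests, whose smallest p is 0.002165 for 6 against 6 arrays and 0.004762 for 4 against 6. The fits were tested on simulated data. The number of arrays limits the precision.

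The genes described and all lists were chosen with earlier results of these data known. All 10 genes are named; of each pathway list up to 4 genes with the smallest p per direction, and 3 nearest genes by likeness. Replicate numbers were not taken as pairs. Same-numbered tumours of the models correlated at −0.25 to 0.10 in deviations from group means, which cannot exclude shared processing by number. Over arrays 1 to 4 the bioB spike rose with the number in melanocytes (8.5, 8.71, 8.81, 9.07) and iMet tumours (8.36, 8.56, 8.64, 8.95). It did not in iHRAS* tumours (8.09, 7.99, 7.92, 7.95). Alternatives were other scalings and filters, 1 probe set per gene, array weights, a replicate block, an endothelial covariate and left-out arrays. Added after seeing the data were raising dim values to 6.21 and leaving out iHRAS* arrays 3 and 4.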

Additional observations from a re-analysis of the deposited data

Results flagged for a closer look

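In groups of 4 to 6 arrays, 3 single arrays stood apart from the rest of their group by Dixon's criterion, out of 42 groups examined, where chance gives about 1 in 20. Pgf was at 8.58 on iHRAS* array 3, with the other 5 between 4.10 and 5.66. Angpt1 was at 5.78 on melanocyte array 3, with the other 3 between 1.20 and 1.41, all below the level of clear measurement. Angpt2 was at 4.06 on melanocyte array 1, with the others between 5.62 and 5.87.

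Tek and Vegfb differed between the models also in the fit of all 16 arrays, by 0.87 (limma adjusted p = 0.0411) and 0.69 (0.0449). The melanocyte arrays cancel in this contrast, so these are the model differences of the report and not separate results. The calls were lost in 13 of 24 and 16 of 25 alternatives.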

How the results depend on the processing

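Over 31 alternatives, 36 differences gave 831 values: 752 kept direction and call, 35 lost a call, 18 gained one and 26 changed sign, 0 of them called in the reported fit. Kdr and Flt4 probe set 1444052_at kept their calls against melanocytes in all alternatives run. Signals near log2 6.21 limit Tek, Angpt2, Pgf and Angpt1, above all in melanocytes.

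The count of these probe sets called higher between the models (2) was 0 with median centring, no filter, the endothelial covariate or without iHRAS* arrays 5 and 6 (where 1 was called lower), and 1 with a 50th percentile filter, raised dim values or without iHRAS* arrays 3 and 4; leaving out single arrays gave 0 to 2. For iMet against melanocytes (5) it was 3 with the 50th percentile filter or raised values, and 4 to 6 with single arrays left out. For iHRAS* against melanocytes (3) it was 5 with median centring or without melanocyte arrays 1 and 3; 1 was called lower with array weights, and 0 to 1 with single arrays left out. All calls numbered 1687, 3040 and 3404 with 1 probe set per gene (reported 2657, 4869 and 5665), 965 between the models with the covariate and 3554 for iHRAS* without melanocyte arrays 2 and 4.

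Same-numbered arrays were not treated as pairs in the reported fit. The replicate block gave 1754 calls between the models, 1 of these probe sets higher there and 5 for iHRAS* against melanocytes.

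As deposited, the median of all differences was 0.26, 0 and −0.24 (iMet minus iHRAS*, iMet and iHRAS* minus melanocytes) against 0.06, −0.09 and −0.13. Of all calls, 82.2%, 56.8% and 33.4% were then higher, and 34% and 31.5% against melanocytes with median centring, against 56.9%, 46% and 41.9% in the reported fit.

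Sign changes were these. Vegfa 1420909_at between the models was 0.16 as deposited, 0.16 with array weights, 0.24 without iHRAS* arrays 3 and 4, and −0.26 to 0.16 with single arrays left out. Flt1 in iMet against melanocytes was 0 with median centring (1419300_at), −0.12 and −0.07 with weights (1419300_at, 1454037_a_at), −0.25 and −0.23 without melanocyte arrays 2 and 4, and −0.19 to 0.12 and −0.06 to 0.33 with single arrays left out. Without melanocyte arrays 2 and 4, iHRAS* differed by 0.01 in Vegfb and −0.73 in Vegfc (−0.11 to 1.33 with single arrays left out). With the covariate, Vegfc was −0.03, both Flt4 probe sets −0.48 and Angpt2 −0.56 between the models. The causes were not tested.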

Other observations

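Among angiogenesis inhibitors, Thbs1 was much lower in both tumour models than in melanocytes and Pf4 higher. Thbs1, which encodes thrombospondin-1, was at 13.25 ± 0.36 (SD, n = 4) in melanocytes, 8.73 ± 0.90 (n = 6) in iMet and 9.60 ± 0.91 (n = 6) in iHRAS* tumours, with ranges apart. It was lower by −4.53 ± 0.49 (SE; limma adjusted p = 8.76e-06) and −3.65 ± 0.49 (6.33e-05). Pf4, platelet factor 4, was higher by 4.98 ± 0.37 in iMet and 3.78 ± 0.37 in iHRAS* tumours, and Spint1 by 1.62 ± 0.58 in iHRAS* tumours (kept in 11 of 21 alternatives). Pf4 and Spint1 were clearly measured on 0 melanocyte arrays. The Pf4 differences with dim values raised were 4.18 for iMet and 2.98 for iHRAS* tumours, and both calls were kept. That of Spint1 in iHRAS* tumours was then 0.84 and lost its call (limma adjusted p = 0.194). Thbs1, Pf4 and Spint1 were the calls among 9 genes of this list tested. Between the models, Pf4 was higher in iMet (1.20 ± 0.34, adjusted p = 0.0287) and Thbs2 lower (−0.97 ± 0.29, 0.0366), 1 each way of 8 tested; these calls were kept in 18 and 10 of 25 alternatives. Macrophage and fibroblast markers also differed between tumours and melanocytes (means of 12.69 in iMet, 12.55 in iHRAS* and 9.63 in melanocytes for fibroblasts), and their part in these differences was not tested.

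Mural cell markers averaged 6.27 ± 0.47 (SD, n = 4) in melanocytes, 8.19 ± 0.45 (n = 6) in iMet and 8.0 ± 0.79 (n = 6) in iHRAS* tumours. Unlike the endothelial mean, this mean did not differ detectably between the models (0.18, exact permutation p = 0.6082), with 0 of 8 markers called by limma and 1 at an unadjusted p under 0.05. Against melanocytes, 4 of 8 mural markers were called higher and 1 lower in each model. Acta2 (13.95 in melanocytes, 12.03 in iMet and 10.92 in iHRAS* tumours) and Mcam (9.78, 8.31 and 9.53) had lower means in tumours. The 3 lymphatic endothelial markers tested between the models were all called, in opposite directions: Lyve1 by 1.61 and Pdpn by 1.26 higher in iMet and Reln by −2.74 lower (limma adjusted p = 0.00297, 0.00156 and 0.000854). Their calls were kept in 24, 25 and 25 of 25 alternatives, and the mean of the list (7.39 and 7.50, exact permutation p = 0.5866) does not show these differences. Prox1, the other gene of this list on the arrays, was above 6.21 on 0 arrays of each group. Its means were 1.27 in melanocytes, 2.69 in iMet and 3.23 in iHRAS* tumours. Pdpn was also measured on all 4 melanocyte arrays (9.33), where Lyve1 (4.82) was measured on 0. Which cells these signals came from was not tested.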
